A study of Mus musculus with 16 samples.

Results

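Ephrins are the membrane-bound ligands of the Eph receptor tyrosine kinases, and this report describes all 8 ephrin ligand genes, Efna1 to Efna5 and Efnb1 to Efnb3, in mouse embryonic stem cells (ESC) and mesodermal cells in which Notch1 signalling could be switched on. They were measured by the 17 probe sets whose platform gene symbol is one of these 8 names, among 45037 probe sets in the table. No further probe set names an ephrin ligand together with another gene. There are 2 probe sets for Efna1, 2 for Efna2, 2 for Efna3, 1 for Efna4, 2 for Efna5, 3 for Efnb1, 4 for Efnb2 and 1 for Efnb3, and each is given apart, since probe sets of 1 gene share its transcripts and are not replicates. A value is an intensity in arbitrary units, and the level of one probe set is never set against that of another.

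All 16 arrays come from EB5, a mouse ESC line. EB5 NERT cells carry Notch1 IC, the intracellular domain of Notch1, fused to an oestrogen receptor part that responds to 4-hydroxy-tamoxifen (OHT), so that OHT lets the fusion protein act in the nucleus. EB5 control cells carry the same pCAG vector without that insert. Notch1 IC acts on genes through the DNA-binding protein RBP-J. ESC without treatment or with 1 µM OHT for 4 h were cultured in serum-free medium favouring ectoderm (ESCe, NERT line) or in medium with serum favouring mesoderm (ESCm, both lines). Mesodermal cells (Mesoderm) of both lines had differentiated for 4 days on collagen IV and were left without OHT or given 1 µM OHT for 4 h. Mesodermal NERT cells with and without OHT were also treated for 4 h with 50 µg/ml cycloheximide (CHX), which blocks protein synthesis. The 4 groups of mesodermal NERT cells have 2 arrays each and every other condition has 1 array. With 2 arrays against 2, groups can easily lie apart without any change, so a lack of overlap below only describes the arrays. The sources used here do not say that the 2 arrays of a group came from separate cultures, so the p-values cover the spread between arrays alone, and that spread may be technical. NERT and control cells are 1 line each, so that the insert and other differences between the lines cannot be told apart.

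Ephrin-A ligands are held in the membrane by a lipid (GPI) anchor and mostly bind EphA receptors, whereas ephrin-B ligands span the membrane and mostly bind EphB receptors. Because both partners sit on cell surfaces, signalling needs contact between cells, and it can run into the receptor-bearing cell and back into the ligand-bearing cell. Ephrins are known for cell sorting and boundary formation in the embryo, for axon guidance and, in the case of ephrin-B2, as a marker of arteries.

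The promoters of the genes whose probe sets rose with OHT are shown here for the RBP-J core, spelled TGGGAA and searched on both strands. Each sequence runs 5′ to 3′ on the gene's strand, from 250 bases before to 50 bases after a start site, as RefSeq gives it for build GRCm38.p6, and capitals mark the core (or its reverse complement). Efna1 has 2 entries at chr3:89279596-89279895 and chr3:89280902-89281201, both on the minus strand. Efna3 also has 2 entries on the minus strand, at chr3:89321719-89322018 and chr3:89322890-89323189. The Efnb1 entry is chrX:99135811-99136110 on the plus strand.
Efna1, first entry: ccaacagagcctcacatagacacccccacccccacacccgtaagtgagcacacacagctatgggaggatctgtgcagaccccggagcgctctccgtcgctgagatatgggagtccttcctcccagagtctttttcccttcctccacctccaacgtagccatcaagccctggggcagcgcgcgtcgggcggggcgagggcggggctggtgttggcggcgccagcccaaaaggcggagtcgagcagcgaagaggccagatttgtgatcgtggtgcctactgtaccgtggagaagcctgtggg
Efna1, second entry: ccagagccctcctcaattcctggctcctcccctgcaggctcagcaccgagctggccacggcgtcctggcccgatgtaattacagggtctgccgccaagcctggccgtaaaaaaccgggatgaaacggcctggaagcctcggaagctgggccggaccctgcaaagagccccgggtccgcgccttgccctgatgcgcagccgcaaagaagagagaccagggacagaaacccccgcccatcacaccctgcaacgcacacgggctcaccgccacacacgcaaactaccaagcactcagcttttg
Efna3, first entry: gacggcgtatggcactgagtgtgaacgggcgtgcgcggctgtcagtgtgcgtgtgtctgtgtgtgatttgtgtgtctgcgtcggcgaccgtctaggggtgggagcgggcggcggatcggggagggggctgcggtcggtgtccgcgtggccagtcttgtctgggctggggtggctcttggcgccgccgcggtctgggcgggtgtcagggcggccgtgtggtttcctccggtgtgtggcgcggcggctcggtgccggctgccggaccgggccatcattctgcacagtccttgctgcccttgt
Efna3, second entry: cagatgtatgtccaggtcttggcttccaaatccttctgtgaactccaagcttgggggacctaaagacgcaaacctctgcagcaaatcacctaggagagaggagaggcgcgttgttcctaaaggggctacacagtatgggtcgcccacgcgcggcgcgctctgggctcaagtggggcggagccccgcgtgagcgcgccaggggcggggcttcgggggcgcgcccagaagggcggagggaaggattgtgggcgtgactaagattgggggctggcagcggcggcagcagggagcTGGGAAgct
Efnb1: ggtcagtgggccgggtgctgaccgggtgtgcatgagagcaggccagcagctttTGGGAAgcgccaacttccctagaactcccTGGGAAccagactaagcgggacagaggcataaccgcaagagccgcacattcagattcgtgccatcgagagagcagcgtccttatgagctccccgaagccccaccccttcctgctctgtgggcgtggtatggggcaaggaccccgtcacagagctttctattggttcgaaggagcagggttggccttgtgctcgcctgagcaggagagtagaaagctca
Of the 8 genes, 7 had promoters in the table used, with 9 entries in all. The core stood in 2 of the 9 entries. Efnb1 held 2 matches, 197 and 168 bases before the start site, and the second Efna3 entry held 1 match, 42 bases after it. The first Efna3 entry and both entries of Efna1 held none. Among 32851 mouse promoters of the same length, 25.6% held the core and 3.79% held it 2 or more times, so single matches are common. The longer form GTGGGAA, which 6.38% of all promoters held, was in none of the 9 entries. A match of letters is a description of the sequence and does not show that RBP-J binds there.

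Array medians ran from 42.0 to 46.9 and 46.2% to 48.7% of probe sets reached 50 on an array. Hes5, a standard Notch target, responded to OHT by 3.57 on the log2 scale in NERT ESC, 4.93 in mesodermal NERT cells and 6.71 with CHX and 0.03 in control cells. Nrarp, another, gave 3.68, 3.02, 4.25 and -0.02 in that order. The probe set of Notch1, the gene of the construct, rose by 1.91 in mesodermal NERT cells and by 2.09 with CHX, and differed by 1.11 in NERT ESC (limma adjusted p = 0.0613) and by -0.01 in control cells. Mesodermal cells still held ESC transcripts. Over 5 ESC markers the summed intensity was 11590 to 12515 on the 6 ESC arrays, 5193 to 9536 on the 6 mesodermal arrays without CHX and 5565 to 7323 on the 4 with CHX. Over 6 early mesoderm markers the sums were 561 to 760, 1348 to 3434 and 911 to 1206 in the same order. T (brachyury), a further listed marker, was not read, since no probe set was named by that symbol alone. Of the 6, Mixl1, Eomes and Fgf8 had higher group means in all mesodermal groups than in any ESC condition, and Kdr, Pdgfra and Mesp1 did not. Kdr read 130 to 234 in ESC, 106 and 128 in control mesodermal cells and 392 on average with CHX alone. Pdgfra read 156 and 138 in control ESCm but 29.5 and 40.7 in control mesodermal cells, and 123 on average in uninduced mesodermal NERT cells. The RNA came from whole cultures, in which fewer cells of a type and less RNA per cell cannot be told apart.

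In ESC, OHT raised 3 ephrin genes: Efna1, Efna3 and Efnb1. On the log2 scale used for all tests, log2(intensity + 25), 4 of the 15 probe sets tested rose and none fell by limma, at an adjusted p under 0.05. Of all 25532 probe sets tested in that fit, 0.474% rose. The 15 are those with a mean of at least 50 in 1 or more groups, and the remaining 2, 1417521_at for Efna2 and 1421796_a_at for Efna5, stayed under 50 on all 16 arrays, with ranges of 16.2 to 35.8 and 7.62 to 41.8. The ligands' median change was 0.64, against 0.06 over all probe sets tested. The NERT ESC comparison takes ESCe and ESCm as the 2 arrays of a group.

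**Figure D1:**
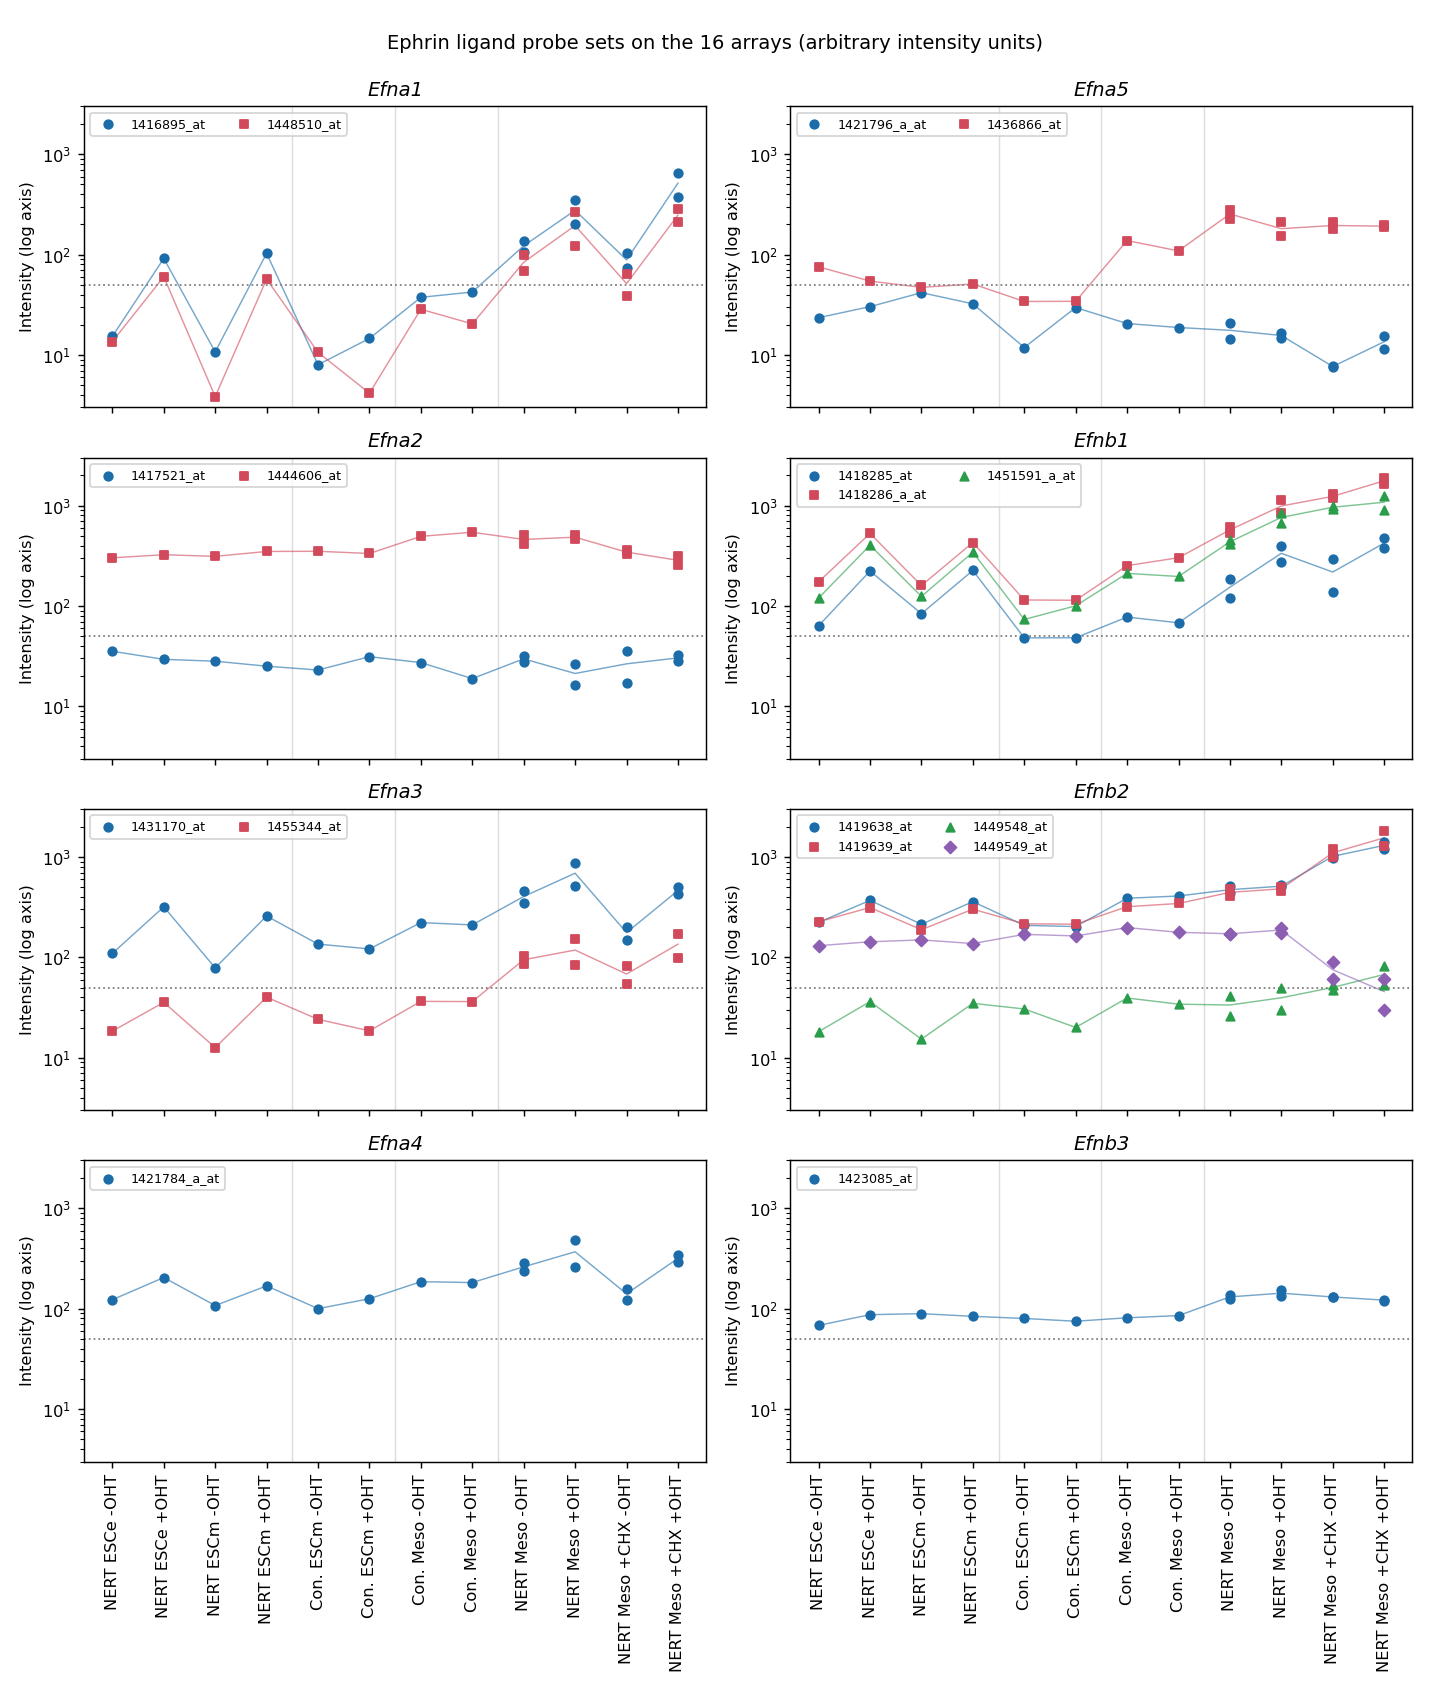
Intensity (log axis, arbitrary units) of the 17 ephrin ligand probe sets in each of the 12 conditions, 1 panel per gene; each point is 1 array, lines join the condition means and the dotted line marks 50. Efna1, Efna3 and Efnb1 lie higher in NERT ESC with OHT than without, while Efna2 1417521_at and Efna5 1421796_a_at stay under 50 throughout.

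Efnb1, a transmembrane ligand that acts in neural crest and skeletal patterning, gave the smallest adjusted p of the family in ESC. Its probe set 1418286_a_at read 174 without and 529 with OHT in ESCe, and 160 without and 429 with OHT in ESCm. Probe set 1451591_a_at read 119.9 and 403 in ESCe, and 125 and 343 in ESCm. In both media the array with OHT lay above both arrays without it, at both probe sets. The log2 changes were 1.39 (SE 0.17, limma adjusted p = 0.0014) and 1.43 (SE 0.18, limma adjusted p = 0.00136). The third Efnb1 probe set, 1418285_at, went from 63.5 to 223 in ESCe and from 83.8 to 226 in ESCm, a log2 difference of 1.35 that did not pass (limma adjusted p = 0.0654). In control ESCm the same 3 probe sets read 115, 73.4 and 48.1 without OHT and 114, 100.4 and 48.2 with it.

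Efna1, the lipid-anchored ligand first known as a cytokine-induced transcript of endothelial cells, was near the background of the arrays in ESC without OHT. Probe set 1416895_at read 15.3 in ESCe and 10.7 in ESCm, and 91.7 and 103 in the same media with OHT. With values under 25 set to 25, these are at least 3.67-fold and at least 4.12-fold higher intensities. The log2 change was 1.69 (SE 0.27, limma adjusted p = 0.00969). Probe set 1448510_at went from 13.6 to 60.2 in ESCe and from 3.85 to 57.0 in ESCm, a log2 difference of 1.32 that did not pass (limma adjusted p = 0.0800). Control ESCm read 7.99 and 14.6 at 1416895_at, and 10.6 and 4.16 at 1448510_at, and at neither probe set above the higher of the uninduced NERT arrays.

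Efna3 rose at 1 of its 2 probe sets. Intensities of 1431170_at were 109.5 without and 319 with OHT in ESCe, and 78.6 without and 258 with OHT in ESCm, a log2 change of 1.40 (SE 0.24, limma adjusted p = 0.0178). The control ESCm arrays read 136 and 121. Probe set 1455344_at stayed under 50 on every ESC array, at 18.4 and 35.6 in ESCe and 12.6 and 40.1 in ESCm, with a log2 difference of 0.64 (limma adjusted p = 0.763). The rise of Efna3 in ESC therefore rests on 1 probe set. None of the alternative fits left out an ESC array, so they do not show whether the ESC calls depend on 1 array. With 100 in place of 25 added before log2, the calls of Efna1 (limma adjusted p = 0.199) and Efna3 (0.0524) were lost, as they were with ESCe and ESCm as groups of their own (0.0520 and 0.0652), whereas both Efnb1 calls held under each alternative tried.

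The other ligands did not pass in ESC. Efna4 read 123 and 205 in ESCe and 108 and 169 in ESCm without and with OHT, a log2 difference of 0.59 (95% interval 0.09 to 1.09, limma adjusted p = 0.747). Efnb2, the transmembrane ligand of EphB4, had log2 differences of 0.68, 0.52 and 0.54 at 1419638_at, 1419639_at and 1449548_at, with limma adjusted p-values of 0.0680, 0.526 and 0.620. At 1449549_at, the other Efnb2 probe set, the difference was 0.00 (95% interval -0.43 to 0.44). Efna2, Efna5 and Efnb3 lay between -0.13 and 0.12, with 95% intervals that reached no further than -0.54 and 0.46.

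The differences between media were smaller than the called changes with OHT. Between ESCe and ESCm, with 1 array each and therefore no test, the 17 probe sets differed by -0.46 to 0.48 on the log2 scale without OHT and by -0.13 to 0.29 with OHT. In either state 0 of the 17 differed by both 2-fold and 50 intensity units, the study's criteria, which 0.0644% of all 45037 probe sets met without OHT and 0.04% with it. By the same criteria 5 of the 17 were higher with OHT in ESCe, where 0.333% of all probe sets were, and 6 in ESCm, where 0.353% were. They were in both cases Efna1 1416895_at, Efna3 1431170_at and the 3 Efnb1 probe sets, with Efna1 1448510_at as the sixth in ESCm.

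In control cells, which lack NERT, OHT called no ligand. In the average over control ESCm and control mesodermal cells, 0 of the 15 probe sets passed limma and 0 had an unadjusted p under 0.05. Of all 25532 probe sets tested, 0% were called and 288 had an unadjusted p under 0.05. That is a smaller share than the 0.05 expected without any change, so the absence of calls here is weak evidence. The ligands' log2 differences ran from -0.26 to 0.19. For Efnb1 1418286_a_at the difference was 0.12 with a 95% interval of -0.26 to 0.49, and for Efna1 1416895_at 0.19 with an interval of -0.39 to 0.76. Control conditions have 1 array each, so this fit lends them the spread of the replicated groups.

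When the response of NERT ESC was set against that of control cells, the difference was above 0 at 15 of 15 probe sets but none passed limma. Among all probe sets 0.149% did, in the higher direction. Efnb1 came nearest, with differences of 1.27 (95% interval 0.74 to 1.80) at 1418286_a_at and 1.30 (95% interval 0.76 to 1.84) at 1451591_a_at, each with a limma adjusted p of 0.0820. Efna3 1431170_at had 1.50 (limma adjusted p = 0.217) and Efna1 1416895_at had 1.50 (limma adjusted p = 0.386). In all, 8 of the 15 had an unadjusted p under 0.05, as did 813 of all 25532 probe sets tested. The ligands' median difference was 0.73, against 0.06 over all probe sets tested.

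**Figure D2:**
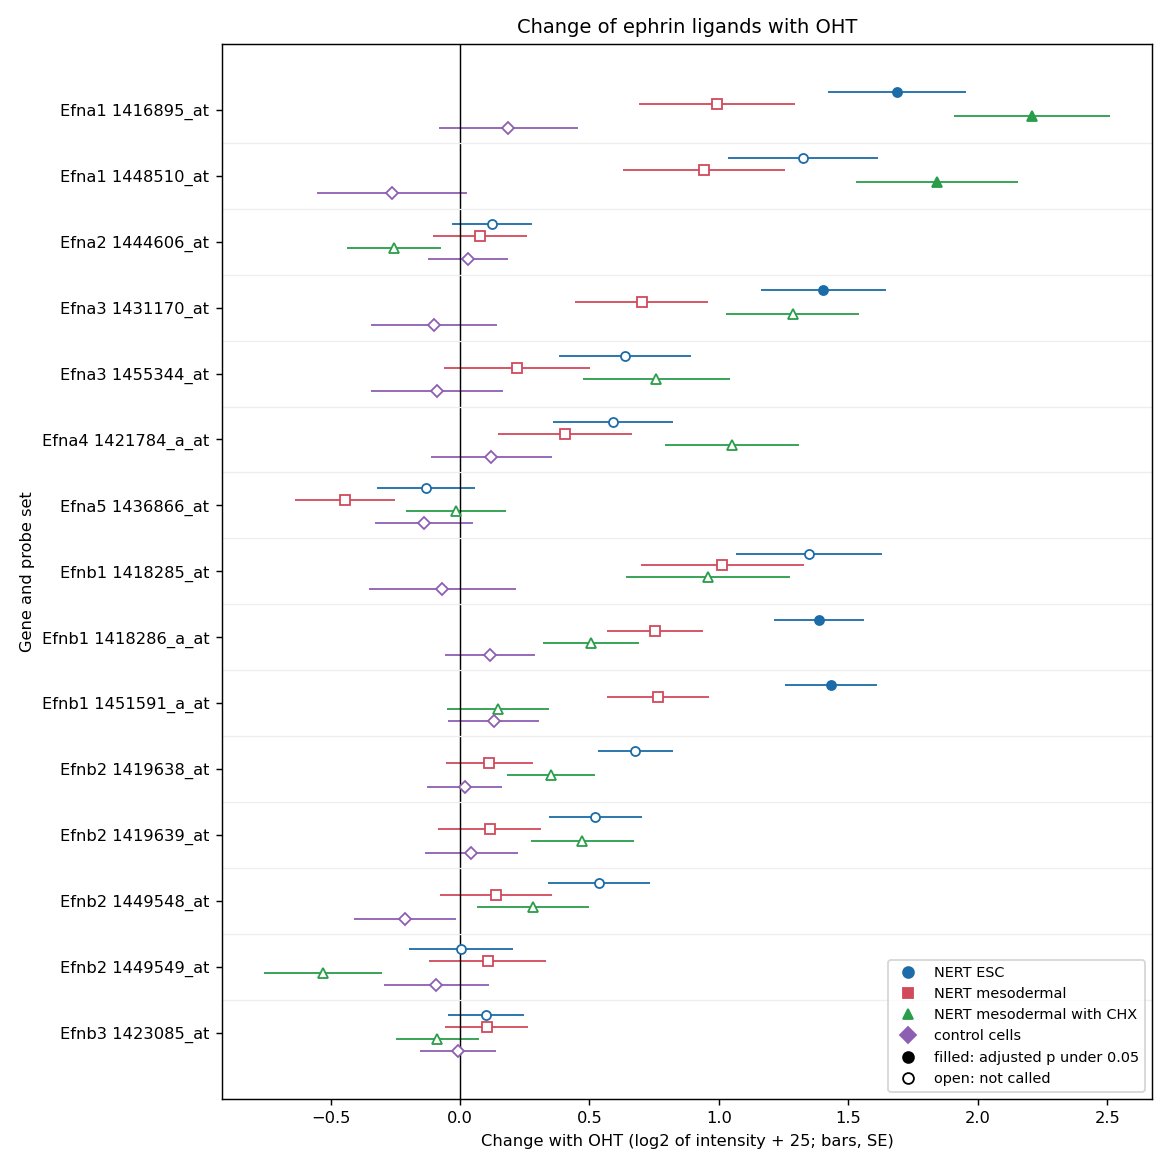
Change with OHT on the log2(intensity + 25) scale for the 15 tested ephrin ligand probe sets (points, with bars of 1 SE) in NERT ESC, mesodermal NERT cells without and with CHX, and control cells; filled points passed limma at an adjusted p under 0.05. Efna1 reaches 2.21 in mesodermal cells with CHX, Efnb1 1.43 in NERT ESC, and the control cells lie between -0.26 and 0.19.

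In mesodermal NERT cells without CHX, no ephrin ligand was called for OHT in the fit of the 8 arrays of these cells. By limma 0 of 15 probe sets passed, and 0.613% of the 23971 probe sets tested in that fit rose. An unadjusted p under 0.05 was found at 7 of the 15 and at 1924 of all 23971. The absence of calls depended on the model fitted, and a fit over all 16 arrays called Efnb1 1418286_a_at and 1451591_a_at (limma adjusted p = 0.0446 and 0.0464), with 468 calls over all probe sets in place of 214. With the replicate number as a block in the 8-array fit, the ligand calls were both Efna1 probe sets, with 339 calls over all. The ligands' median difference was 0.22, against -0.04 over all probe sets tested, and 14 of 15 lay above 0. Efnb1 had the smallest adjusted p-values. Its 1418286_a_at read 536 and 611 without OHT and 845 and 1139 with it, groups that did not overlap, with a log2 difference of 0.75 (95% interval 0.34 to 1.16, limma adjusted p = 0.119). For 1451591_a_at the arrays read 417 and 456 without OHT and 674 and 853 with it, a difference of 0.77 (limma adjusted p = 0.140).

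Efna1 also lay higher with OHT on both arrays. Its 1416895_at read 107 and 138 without OHT and 200.2 and 352 with it, a log2 difference of 0.99 (95% interval 0.33 to 1.66, limma adjusted p = 0.248). The 2 arrays with OHT thus differed from each other by more than the 2 without it. Efna3 1431170_at read 349 and 459 against 511 and 869, a difference of 0.70 (limma adjusted p = 0.416). Efna5, a lipid-anchored guidance cue of the visual system, was the one probe set below 0. It read 229 and 280 without OHT and 154 and 209 with it, a difference of -0.44 (95% interval -0.87 to -0.02, limma adjusted p = 0.593).

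Against the response of control cells, the mesodermal NERT response differed at 0 of 15 ligand probe sets by limma, with 5 at an unadjusted p under 0.05, while 0.337% of all probe sets passed as higher. This comparison and that of NERT ESC share the 4 control arrays. The control mesodermal arrays read 37.5 without and 42.4 with OHT at Efna1 1416895_at, 222 and 211 at Efna3 1431170_at, and 252 and 303 at Efnb1 1418286_a_at. The responses of NERT ESC and mesodermal NERT cells were also compared with each other. None of the 15 differed by limma, and 0.0313% of all probe sets differed in either direction. An unadjusted p under 0.05 was found at 3 of the 15 and at 1846 of all 25532 probe sets tested. For Efnb1 1418286_a_at the ESC response was larger by 0.63 (95% interval 0.11 to 1.16, limma adjusted p = 0.600), so that a call in ESC and none in mesodermal cells is not shown to be a difference between them.

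With CHX present, OHT raised Efna1 in mesodermal cells at both of its probe sets. At 1416895_at the arrays read 73.5 and 104 with CHX alone, and 372 and 658 with CHX and OHT. The ratio of the means was 5.81 and the log2 change 2.21 (SE 0.30, limma adjusted p = 0.00597). At 1448510_at they read 38.5 and 64.3 with CHX alone, and 211 and 284 with CHX and OHT. There the ratio of the means was 4.82 and the log2 change 1.84 (SE 0.31, limma adjusted p = 0.0258). The groups did not overlap at either probe set. These 2 were the only ligand probe sets of 15 to pass, with 0.567% of all probe sets rising. An unadjusted p under 0.05 was found at 9 of 15 and at 1413 of all 23971 probe sets tested. The ligands' median was 0.47 against -0.00113 over all. The calls rest on few arrays. Leaving out the first array with CHX alone ended both (limma adjusted p = 0.0997 at 1416895_at), and leaving out any 1 of the 4 arrays with CHX ended that of 1448510_at (limma adjusted p from 0.0651 to 0.297).

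Efna3 and Efna4 lay higher with OHT as well, without passing. Efna3 1431170_at read 202 and 150.4 with CHX alone and 499 and 428 with OHT added, a log2 difference of 1.29 (95% interval 0.72 to 1.85, limma adjusted p = 0.0653). Efna4, a lipid-anchored ligand with 1 probe set, 1421784_a_at, read 123 and 159 with CHX alone and 340.2 and 295 with OHT added, a difference of 1.05 (95% interval 0.48 to 1.62, limma adjusted p = 0.185). In both genes the 2 groups were apart, but they were at Efnb3 too, where the log2 difference was only -0.09.

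Efnb1 and Efnb2 had no call for OHT in the presence of CHX. The Efnb1 log2 differences were 0.96 at 1418285_at, 0.51 at 1418286_a_at and 0.15 at 1451591_a_at, with limma adjusted p-values of 0.490, 0.638 and 0.954. At 1451591_a_at the groups overlapped, with 1000.3 and 927 under CHX alone and 1251 and 912 with OHT added. The groups were apart at the other Efnb1 probe sets and at Efnb2 1419638_at and 1419639_at. The Efnb2 differences were 0.35 at 1419638_at, 0.47 at 1419639_at, 0.28 at 1449548_at and -0.53 at 1449549_at.

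Whether CHX altered the OHT response was tested as the difference of both responses. It passed at 0 of the 15 ligand probe sets by limma, and 0.025% of all probe sets passed in either direction. An unadjusted p under 0.05 was found at 1080 of all 23971 probe sets tested and at 1 of the 15. That 1 was Efna1 1416895_at, whose response was larger with CHX by 1.22 (95% interval 0.28 to 2.16, limma adjusted p = 0.948). The call of Efna1 with CHX and its absence without CHX, in the fit without a block, are therefore not shown to differ.

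Efna1, Efna3 and Efna4 are neighbours on chromosome 3. In RefSeq's order the genes around them are Krtcap2, Dpm3, Slc50a1, Efna1, Efna3, Efna4, Adam15, Dcst1 and Dcst2, with 4 long noncoding RNA genes, for which no probe set is named, lying among the 3 ephrins. Of the 6 flanking genes, 3 were tested. With OHT in the presence of CHX, Krtcap2 differed by 0.54 on the log2 scale (limma adjusted p = 0.314), Slc50a1 by 0.03 and Adam15 by -0.20, beside 2.21 for Efna1, 1.29 for Efna3 and 1.05 for Efna4. In NERT ESC the flanking genes lay at 0.25, 0.11 and 0.03, beside 1.69, 1.40 and 0.59. None of the 3 flanking genes passed limma in either comparison.

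**Figure D3:**
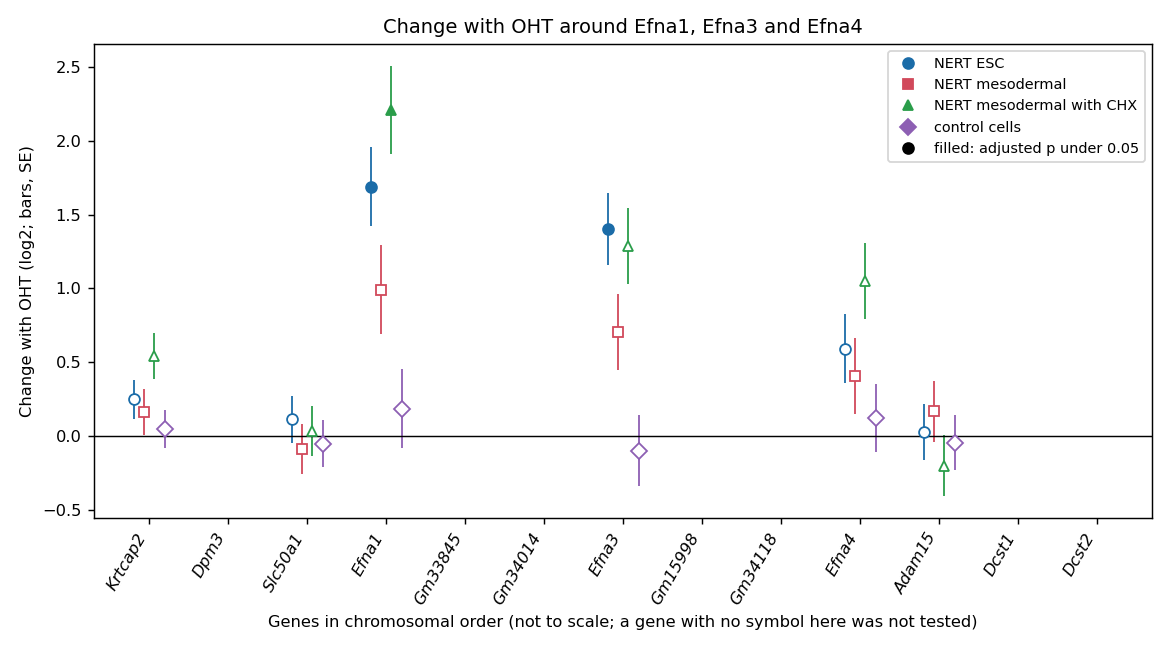
Change with OHT (log2(intensity + 25) scale, bars of 1 SE) of Efna1, Efna3, Efna4 and the genes around them, in chromosomal order and not to scale; filled points passed limma, and a gene without points was not tested. The ephrins reach 2.21, 1.29 and 1.05 in mesodermal cells with CHX, and the flanking genes lie at 0.54 or below in all 4 comparisons.

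CHX alone moved ephrin probe sets of mesodermal NERT cells in both directions. By limma 4 of 15 rose and 3 fell. Such calls were frequent everywhere on the arrays, with 21.1% of all probe sets rising and 11.7% falling, so that the ligands' share is read against a large background. The ligands' median was -0.34, against 0.06 over all probe sets tested. The risers were 2 probe sets of Efnb1 and 2 of Efnb2, and the fallers were Efna3 1431170_at, Efna4 and Efnb2 1449549_at. Lineage markers moved with CHX as well. Between the group means without and with CHX alone, of the early mesoderm markers Mixl1 went from 1055 to 116 and Eomes from 651 to 192, and of the neuroectoderm markers Sox1 went from 17.7 to 178 and Pax6 from 27.1 to 128. Over the 3 neuroectoderm markers the sums were 207 to 860 on the mesodermal arrays without CHX and 632 to 1340 on those with it, and over 4 endoderm markers 103 to 281 and 346 to 552. Their part in the ephrin changes was not tested.

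At Efnb1 1418286_a_at the arrays read 536 and 611 without CHX and 1294 and 1180.4 with it, a log2 change of 1.08 (SE 0.19, limma adjusted p = 0.00169). The 1451591_a_at values were 417 and 456 without CHX and 1000.3 and 927 with it, a change of 1.10 (SE 0.20, limma adjusted p = 0.00217). Both arrays with CHX were above both without it, and also above the arrays with OHT alone. The third probe set, 1418285_at, read 187 and 121 without CHX and 297 and 139 with it, so the groups overlapped, with a difference of 0.38 (limma adjusted p = 0.374).

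Efnb2 moved in opposite directions at its probe sets. For 1419638_at the arrays read 511 and 435 without CHX and 1055 and 976 with it, a log2 change of 1.07 (SE 0.17, limma adjusted p = 0.00107). For 1419639_at they read 476 and 413 without CHX and 1214 and 991 with it, a change of 1.26 (SE 0.20, limma adjusted p = 0.0011). By contrast 1449549_at fell from 173 and 171 to 61.1 and 89.4, a change of -0.99 (SE 0.23, limma adjusted p = 0.00775). Over all 16 arrays 1449549_at correlated with 1419638_at and 1419639_at at Pearson's r of -0.76 and -0.82, whereas those 2 correlated with each other at 0.99. No direction for the Efnb2 gene as a whole can be read from probe sets that disagree. With OHT added to CHX, 1449549_at read 61.2 and 29.9, and 1419639_at read 1300 and 1806.

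**Figure D4:**
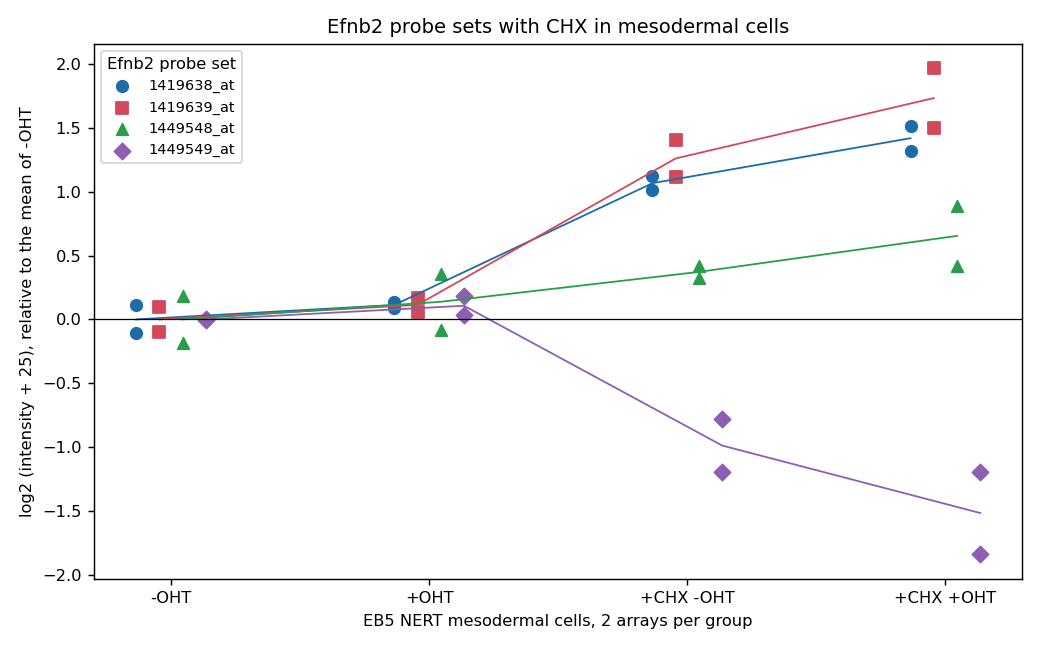
The 4 Efnb2 probe sets in mesodermal NERT cells, as log2(intensity + 25) relative to each probe set's mean without OHT or CHX; points are single arrays, 2 per group, and lines join the means. With CHX alone 1419638_at and 1419639_at lie at 1.07 and 1.26 and 1449549_at at -0.99.

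Efna3 1431170_at fell with CHX from 349 and 459 to 202 and 150.4, by 1.09 on the log2 scale (SE 0.26, limma adjusted p = 0.00873). Efna4 went from 236 and 287 to 123 and 159, and fell by 0.79 (SE 0.26, limma adjusted p = 0.0384). The groups were apart in both. Of the flanking genes tested, Krtcap2 fell as well, by 0.85 (SE 0.15, limma adjusted p = 0.00225), whereas Slc50a1 and Adam15 were not called. Efna1 had differences of -0.38 and -0.52 at its 2 probe sets, with limma adjusted p-values of 0.357 and 0.229. Efnb3 had a difference of -0.00 (95% interval -0.35 to 0.35). The fall of Efna3 was lost without the second array that had neither agent (limma adjusted p = 0.0768) or the second with CHX alone (0.0676), and that of Efnb2 1449549_at without the first with CHX alone (0.0853). That of Efna4 was lost without any 1 of the 4 arrays compared (0.0648 to 0.222), with no filter (0.0681) and with 100 added (0.0530).

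Most ephrin ligands were higher in mesodermal cells than in ESC. In the NERT line without OHT, 13 of 15 probe sets were higher by limma and none lower, where 23.3% of all probe sets were higher. The median difference was 1.03, against 0.06 over all probe sets tested. All 8 genes had at least 1 probe set among the 13. In control cells, with mesodermal cells and ESCm each averaged over both OHT states, 7 of 15 were higher, where 11.9% of all were, and the median difference was 0.61 against 0.03.

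The lipid-anchored Efna5 was higher in the mesodermal cells of both lines. Its 1436866_at read 75.6 and 47.2 in NERT ESC and 229 and 280 in mesodermal NERT cells, a log2 difference of 1.71 (SE 0.19, limma adjusted p = 1.48e-05). In control cells it read 34.1 and 34.3 in ESCm and 138 and 109 in mesodermal cells, a difference of 1.32 (SE 0.19, limma adjusted p = 0.000311). The groups were apart in both lines.

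Efnb1 1418286_a_at was higher in mesodermal cells by 1.64 in NERT cells (SE 0.17, limma adjusted p = 9.7e-06) and by 1.11 in control cells (SE 0.17, limma adjusted p = 0.000573). Control cells read 115 and 114 in ESCm against 252 and 303 in mesodermal cells, which did not overlap. Efnb2 1419638_at differed by 1.03 (limma adjusted p = 0.000104) and 0.88 (limma adjusted p = 0.000861) in the same order of lines. Its other probe set 1449549_at differed by 0.26 and 0.15 and passed in neither.

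Efna1 and Efna3 had the widest gaps in the NERT line. Efna1 1416895_at differed by 1.95 there (SE 0.27, limma adjusted p = 9.07e-05) and by 0.84 in the control line (SE 0.27, limma adjusted p = 0.0419). Efna3 1431170_at differed by 1.85 (SE 0.24, limma adjusted p = 5.98e-05) in the NERT line and by 0.65 (limma adjusted p = 0.0767) in the control line. Whether these gaps differ between lines was not tested. Efna2 1444606_at differed by nearly the same amount in both, with 0.54 (limma adjusted p = 0.0142) and 0.56 (limma adjusted p = 0.0205). It read 302 to 351 on the 6 ESC arrays and 416 to 543 on the 6 mesodermal arrays without CHX. Efnb3, a transmembrane ligand of the midline of the spinal cord, differed by 0.60 in the NERT line (limma adjusted p = 0.00593) and by 0.08 (95% interval -0.23 to 0.39) in the control line. Leaving out 1 mesodermal NERT array ended the NERT call of Efna2 (the first array, limma adjusted p = 0.151) and that of Efnb3 (the second, 0.0516), and the control call of Efna1 was lost with 100 added, without the filter or with 12 groups (0.304, 0.0705 and 0.0892).

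**Figure D5:**
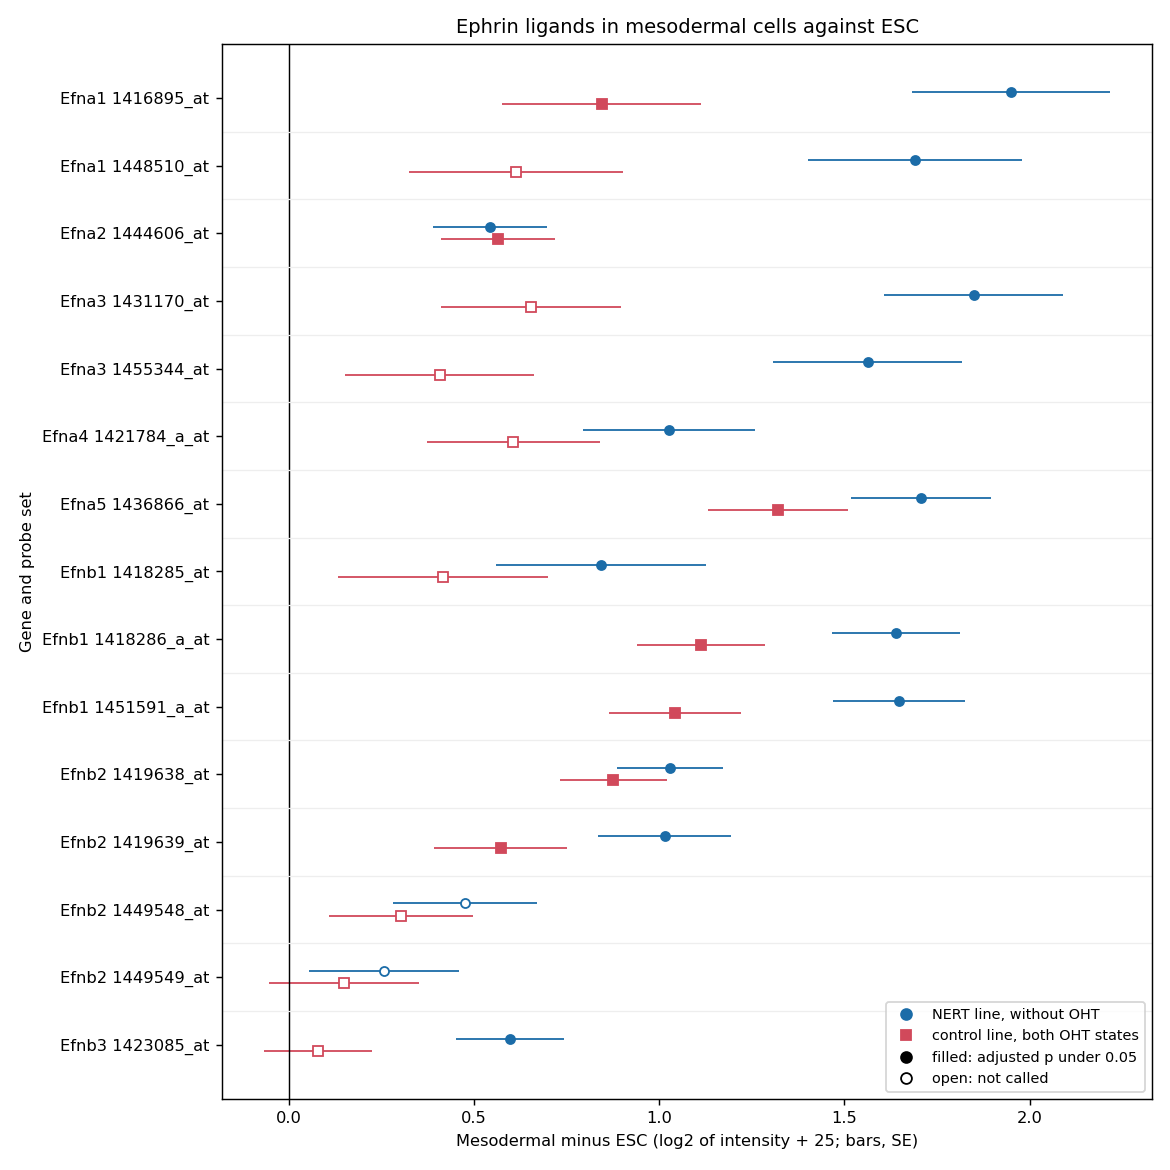
Difference between mesodermal cells and ESC on the log2(intensity + 25) scale for the 15 tested ephrin ligand probe sets, for the NERT line without OHT and for control cells over both OHT states (points, with bars of 1 SE); filled points passed limma. Every point lies above 0, with 13 filled for NERT cells and 7 for control cells.

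Before any OHT was given, NERT mesodermal cells already held more Efnb1 than control mesodermal cells. Probe set 1418286_a_at read 252 on the control array and 536 and 611 on the NERT arrays, a log2 difference of 1.11 (SE 0.21, limma adjusted p = 0.0125). For 1451591_a_at the values were 211 against 417 and 456, a difference of 0.96 (SE 0.22, limma adjusted p = 0.0291). These were the 2 of 15 ligand probe sets called, where 2.6% of all probe sets were higher. An unadjusted p under 0.05 was found at 9 of 15 and at 4033 of all 25532 probe sets tested. The uninduced NERT arrays used here also enter the comparisons with OHT, CHX and ESC above. Efna1 1416895_at read 37.5 against 107 and 138 and missed the threshold, with a difference of 1.23 (SE 0.33, limma adjusted p = 0.0607). Leaving out the second NERT array ended both Efnb1 calls (limma adjusted p = 0.0714 and 0.126), and leaving out the first ended that of 1451591_a_at (0.102).

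Other transcripts moved with this line difference. Nrarp, a Notch target, was higher in uninduced NERT than control mesodermal cells by 2.51 (SE 0.23, limma adjusted p = 9.69e-05). Hes5, the other Notch target read here, did not pass, with a difference of 0.10 (limma adjusted p = 0.914). Nor did Notch1, with 0.90 (limma adjusted p = 0.111). Of the early mesoderm markers, Mixl1 read 1055 on average in NERT and 250.4 in control mesodermal cells, and Fgf8 read 736 and 215. Of the ESC markers, Zfp42 read 1185 and 2848. The part of uninduced Notch activity and of differentiation state in the ephrin differences was not tested. In ESC without OHT, 0 of 15 ligand probe sets differed between the lines by limma, with 0.274% of all probe sets differing in either direction. An unadjusted p under 0.05 was found at 2 of the 15 and at 1511 of all 25532 probe sets tested.

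No Eph receptor tested was called higher with OHT. Of 14 Eph receptor genes listed, 13 had a probe set and 7 were tested, namely Epha1, Epha2, Epha4, Epha7, Ephb1, Ephb3 and Ephb4. Each receptor was read from 1 probe set, that with the highest mean over all arrays, and any others were not examined. With OHT, 0 of 7 passed in NERT ESC and 0 in mesodermal cells with CHX. In mesodermal cells without CHX, 67 of all 23971 probe sets tested fell, and so did 1 of the 7 receptors. That was Epha7, a receptor of ephrin-A ligands, which read 127 and 165 without OHT and 44.5 and 47.8 with it, a log2 change of -1.25 (SE 0.19, limma adjusted p = 0.0118). Against the response of control cells its change was -1.32 (SE 0.25, limma adjusted p = 0.0450). With CHX it read 186 and 236 without and 100.7 and 126 with OHT, a difference of -0.77 (limma adjusted p = 0.180).

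In mesodermal NERT cells without OHT, 4 of the 7 receptors were higher than in ESC, Epha1 by 2.50, Epha7 by 1.86, Ephb3 by 1.05 and Ephb4 by 0.89. Over all probe sets tested, 23.3% were higher in that comparison and 11.9% in the control line. Between uninduced NERT and control mesodermal cells 2.6% were higher. In the control line only Epha1 passed, with 1.33 (SE 0.18, limma adjusted p = 0.000164). Uninduced mesodermal NERT cells also exceeded control cells in Epha1, by 1.14 (limma adjusted p = 0.0114), and Epha7, by 1.37 (limma adjusted p = 0.00455). CHX alone raised Epha4 and Ephb3, by 0.72 each (limma adjusted p = 0.0264 and 0.0328), and Epha1 fell by 1.01 (limma adjusted p = 0.00213). These calls stand beside 21.1% of all probe sets rising and 11.7% falling with CHX alone.

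With OHT, 0.474% of all probe sets tested rose in NERT ESC, 0.613% in mesodermal cells and 0.567% in those with CHX. Of 22 genes that act downstream of ephrins and Ephs or in their turnover, all tested, 1 rose in each of the 3 settings. It was Kalrn, a guanine nucleotide exchange factor that acts downstream of EphB receptors in dendritic spines. It read 70.2 and 391 in ESCe, 68.9 and 365 in ESCm, and 106 and 156 without against 488 and 573 with OHT in mesodermal cells. The log2 changes were 2.09 in ESC (limma adjusted p = 0.000166), 1.85 in mesodermal cells (limma adjusted p = 0.00317) and 1.88 with CHX (limma adjusted p = 0.00248). Its 4 control values lay between 56.7 and 66.3.

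Likeness of pattern was described by Pearson's r of log2(intensity + 25) over the 16 arrays, between 1 probe set per ligand and 1 per gene of 12667 genes, without a test, since the arrays share treatments and lines. Efna3 and Efna4 were among each other's 3 most alike genes, with r = 0.95, and Limk2, with r = 0.96, stood first for Efna4. Hey2, a Notch-responsive transcriptional repressor, stood first for Efna1 with r = 0.97. After it came Septin8 and 2310030G06Rik, and the other places for Efna3 were held by Ctdspl and Cdh1 and for Efna4 by Tmod3. The 3 genes most alike Efna2 were Fads2 (0.94), Snhg14 and Egln2, and those for Efna5 were Cdk14 (0.99), Ahnak2 and Rfx3. For the ephrin-B ligands they were Card10 (0.98), Vasn and Zfp697 for Efnb1, Trpc1 (0.99), Kctd20 and Tnip1 for Efnb2, and Rab8b (0.97), Tcp11x2 and Nab1 for Efnb3. Among the ligands, Efnb1 correlated with Efnb2 at 0.92 and with Efna1 at 0.91. Efna2 stood apart from the family, with r from -0.21 to 0.34. Its level without CHX was higher in mesodermal cells of both lines, and its lowest group, at 258 and 313, was that with CHX and OHT.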

How the data were processed

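RNA of 16 samples was hybridised to Affymetrix GeneChip mouse genome arrays. The authors computed the deposited values with dChip as model-based intensity on a linear scale, normalised between arrays. Such scaling sets a common level, so that all differences are relative to it, and low intensities carry more noise. Probe sets were named through the platform's gene symbols, of which 34945 probe sets had 1, 932 several and 9160 none. Here 25 was added, log2 taken, and probe sets with a group mean of at least 50 were tested with limma 3.58.1 in R 4.3.3 (eBayes with trend, Benjamini-Hochberg, threshold 0.05). Comparisons within mesodermal NERT cells used 8 arrays in 4 groups. All others used 16 arrays in 10 groups, with ESCe and ESCm of the NERT line as 1 group, leaving 6 residual degrees of freedom. The number of arrays limits the precision. The script was tested on simulated data, where it missed many changes. It recovered 48% of 2-fold changes for OHT in mesodermal cells, 46% with CHX and 64% in NERT ESC. Members and lists were chosen with earlier results of these data known. Named genes were all members, plus list genes past the threshold, the flanking genes tested and the 3 genes most alike each member in pattern. Alternatives were other added values, no filter, quantile normalisation, no trend, other fits and a replicate block. Others were each mesodermal NERT array left out, but no ESC or control array, and the study's criteria of 2-fold and 50 units without its detection call. Detection calls were not used here.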

Additional observations from a re-analysis of the deposited data

How the results depend on the processing

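No ephrin change that was called reversed its direction under any alternative tried. Only mesodermal NERT arrays were left out, so leaving out an array could not reverse a change within ESC or control cells. Differences that were not called could reverse. With the second mesodermal NERT array with OHT left out, Efna3 1455344_at read 83.3 with OHT against 85.4 and 103.9 without it. Without CHX, OHT in mesodermal cells called 0 ligand probe sets by limma and 2 in the 16-array fit (both Efnb1), while 3 met the criteria of 2-fold and 50 units (over all probe sets 214, 468 and 336). With CHX the 2 calls of Efna1 became 1 without the filter on low values, 4 by the fold and difference criteria (over all 148, 111 and 236), and 0 to 3 with 1 array left out. In NERT ESC the 4 calls became 2 with 100 added before log2 and 2 with all 12 conditions as groups, which in both cases ended those of Efna1 and Efna3 (over all 127, 102 and 76). For the NERT ESC response against that of control cells, leaving out a mesodermal NERT array could alter p-values but not log2 differences. Those arrays do not enter that comparison. Mesodermal cells against ESCm in the control line went from 7 to 4 calls, and NERT against control mesodermal cells from 2 to 0, with 12 conditions as groups, while the calls over all went from 4978 to 3445 and from 887 to 337. The latter had 0 to 3 calls with 1 array left out. The cause was not tested. The replicate numbers were not taken as pairs, since correlations of same-numbered deviations ran from 0.01 to 0.51. The 0.51 was that between mesodermal NERT cells without and with OHT, both without CHX, and the next highest was 0.21. With the replicate block, OHT called 2 ligand probe sets without CHX (both of Efna1) and 3 with it, and CHX alone called 8. The block also raised the calls over all probe sets, from 214 to 339, from 148 to 191 and from 7871 to 9170. Efna2 1417521_at and Efna5 1421796_a_at stayed under 50 on every array and were not tested, Efna1, Efna3 1455344_at and Efnb2 1449548_at were under 50 on some, and the control conditions have no replicate of their own.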
